A study of Mus musculus with 8 samples.

Results

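The miR-34 family was followed in total kidney RNA of outbred CD-1 mice with Agilent miRNA arrays that read 1 colour, Cy3. Its 5 members, mmu-miR-34a-5p, mmu-miR-34b-5p, mmu-miR-34c-5p, mmu-miR-34b-3p and mmu-miR-34c-3p, written without the mouse prefix from here on, were taken by name from the 1023 mouse miRNA names on the array, and all 5 were there, each with 2 probes of 20 spots. Of these, miR-34a-5p and miR-34b-5p could be tested. The tacrolimus group (4 arrays) came from mice given tacrolimus, a calcineurin inhibitor used against transplant rejection and known to injure the kidney, at a daily 1 mg per kg over 28 days. The control group (4 arrays) came from mice given physiological serum instead. No genotype, age or sex is given in the labels. Whether each array stands for its own mouse is not stated either. The p-values therefore cover the spread among these arrays alone, and that spread may be technical.

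miR-34 miRNAs are small RNAs that lower the levels of mRNAs needed for cell division and survival, among them those of Cdk4, Cdk6, Met and Bcl2. The transcription factor p53 binds their promoters and raises them after DNA damage. miR-34a is cut from a transcript of its own and is found in many tissues, whereas miR-34b and miR-34c are cut from a shared transcript and are best known, together with the related miR-449, from cells with motile cilia. In mouse kidney, miR-34a has been described as a p53-dependent miRNA of injured tubules.

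The sequences show what the members share. The 5p members and miR-449 carry the same seed, the stretch at bases 2 to 8 that pairs with target mRNAs, while the 3p arms carry another. The mature sequences below, from RefSeq on GRCm38.p6 and written 5′ to 3′, have the seed in capitals. RefSeq held 4 of the 5 members and 2 of the 3 miR-449 relatives on the array.

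miR-34a-5p: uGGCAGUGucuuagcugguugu
miR-34b-5p: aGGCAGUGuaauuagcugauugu
miR-449a-5p: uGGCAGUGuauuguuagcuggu
miR-449c-5p: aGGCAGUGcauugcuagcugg
miR-34b-3p: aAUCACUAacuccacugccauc
miR-34c-3p: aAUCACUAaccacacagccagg

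In that table the seed GGCAGUG belonged to 4 of 1679 mature names, the first 4 above, and AUCACUA to the last 2 alone. Outside the seed the likeness differed by pair. miR-34a-5p and miR-34b-5p matched at 11 of 22 positions when lined up from the 5′ end without gaps, and their longest common run was 8 bases. Such a count does not allow for an inserted base, so it can understate their likeness. By the same count miR-34b-3p and miR-34c-3p matched at 17 of 22 positions, and miR-34a-5p and miR-449a-5p at 15 of 22. On GRCm38.p6, miR-34a-5p lies at chr4:150068473-150068494 on the plus strand, and the Mir34a hairpin overlapped no other gene in the RefSeq table. miR-34b-5p lies at chr9:51103610-51103632 on the minus strand. The Mir34b and Mir34c hairpins stand on the same strand of that chromosome, 451 bases apart, and both lie within the span of the protein-coding genes Btg4 and Hoatz. The hairpins of Mir34a and Mir34b follow, with both arms in capitals, to show where the 5p arm and the 3p arm sit.

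Mir34a: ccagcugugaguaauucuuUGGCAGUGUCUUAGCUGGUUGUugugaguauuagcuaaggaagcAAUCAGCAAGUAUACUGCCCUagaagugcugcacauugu
Mir34b: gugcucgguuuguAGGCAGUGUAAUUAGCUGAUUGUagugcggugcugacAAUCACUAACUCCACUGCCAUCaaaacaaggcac

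The array reads each miRNA through probes complementary to its 3′ part. The probes of the 2 tested members are shown because their letters bear on whether the members can be told apart. Those of miR-34a-5p pair with 19 and 20 of its 22 bases, and those of miR-34b-5p with 21 and 22 of its 23. The shorter probes thus already pair with part of the seed. The longer probe of each carries an added base at its 3′ end, in capitals, that pairs with a further base of the seed.

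miR-34a-5p, shorter probe: acaaccagctaagacactg
miR-34a-5p, longer probe: acaaccagctaagacactgC
miR-34b-5p, shorter probe: acaatcagctaattacactgc
miR-34b-5p, longer probe: acaatcagctaattacactgcC

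The longer probe of miR-34a-5p matched its own miRNA over all 20 bases and miR-34b-5p over a run of 7 at most, and that of miR-34b-5p matched its own over 22 and miR-34a-5p over 8. The longest run shared across members, among those computed, was 11 bases between the probes of miR-34c-5p and miR-34b-5p. A run ends at the first mismatched base, so it can understate how alike a probe and a miRNA are. Signal shared between members was not tested.

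On the arrays the family split by arm. miR-34a-5p was detected on every array, miR-34b-5p on 6 of 8 and miR-34c-5p on 3 of 8, and the 3p arms on 0 of 8. Detection here means that the scanner software flagged a share of 0.5 or more of a probe's kept spots as well above background, and each miRNA is given by its brightest probe. By that rule 14.2% of the 1023 names were detected on all 8 arrays and 78.2% on none. miR-34b-3p and miR-34c-3p had 0% of spots above background on every array. So had their second probes, and the software's own call found neither on any array. The probes of these 3p arms are 13 to 16 bases long, against 19 to 22 for those of the 5p members. What probe length does to detection was not tested. Among the relatives, miR-449a-5p, miR-449b and miR-449c-5p were likewise detected on 0 of 8 arrays.

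**Figure D1:**
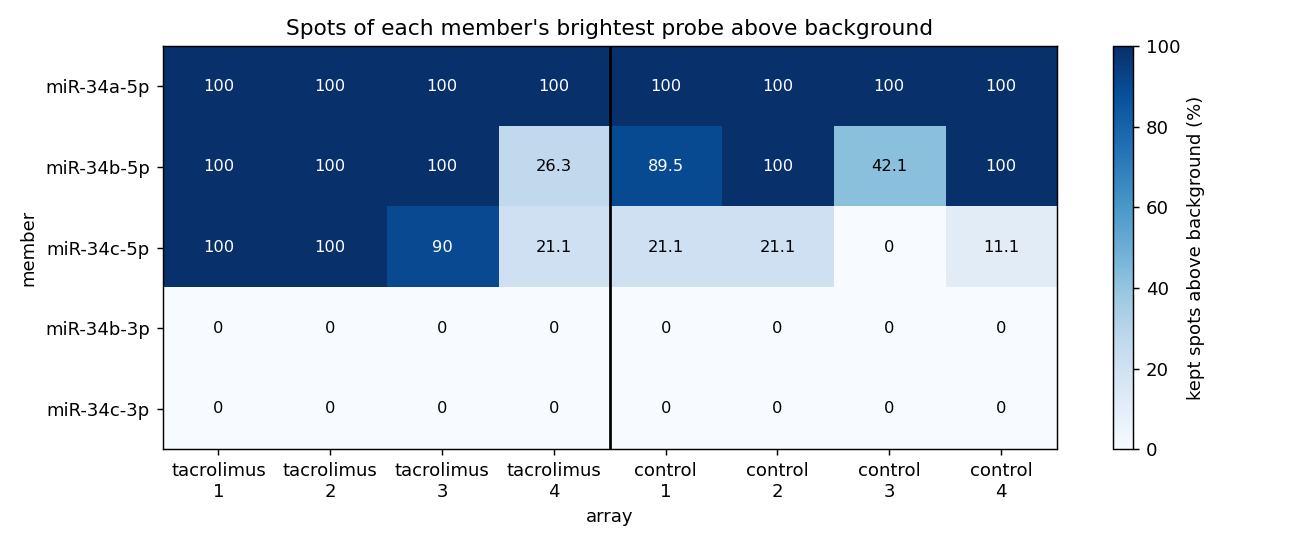
Percent of kept spots well above background for the brightest probe of each member (rows) on each array (columns, tacrolimus left of the line and control right of it). miR-34a-5p stood at 100% throughout and the 3p arms at 0%, while miR-34c-5p reached 90% to 100% on tacrolimus 1 to 3 and at most 21.1% on any control array.

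The arrays differed in noise, which sets what a dim probe can show. The spread (SD) of the negative control signals was 4.45 to 5.46 on tacrolimus 1 to 3 and 20.01 on tacrolimus 4, against 4.82 and 4.95 on controls 4 and 2 and 9.69 and 10.5 on controls 3 and 1. Between 9.60% and 15.2% of mouse miRNA probes were detected per array. The slide had a row of tacrolimus arrays and a row of control arrays, so row and treatment cannot be told apart. Each of the 4 slide columns held 1 array of each group, with the same replicate number. Kidney tubule markers (5 of 5, among them miR-192-5p and miR-204-5p) and the endothelial miR-126a were detected on all 8 arrays, and the liver marker miR-122-5p on 0.

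miR-34a-5p, the member made from its own gene, varied widely from array to array within both groups. Levels are given as log2 scaled signals, where 0 is the 75th percentile of those probes that every array detected. miR-34a-5p stood at -1.09, -0.90, -1.25 and -1.67 on tacrolimus 1 to 4, against -0.78, -1.06, -0.70 and -1.66 on control 1 to 4. The groups overlapped throughout, and the lowest array of each was number 4, in the same slide column. Before scaling, these were mean intensities of 1052, 1220, 693 and 696 after tacrolimus, against 1474, 916, 880 and 551 in controls.

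The mean of miR-34a-5p was -1.23 ± 0.33 after tacrolimus and -1.05 ± 0.43 in controls (SD, n = 4 each), a difference of -0.18 (SE 0.227, 95% interval -0.69 to 0.34). It did not pass the test (limma, adjusted p = 0.736). Of the 194 tested miRNAs, 3.09% passed at an adjusted p under 0.05, all of them higher after tacrolimus, and of the members 0 did. Those 6 calls stood at an adjusted p of 0.0478 and fell to 0 under several alternatives, among them no scaling and a trended robust fit, while median scaling gave 8, of which 6 were higher. The interval spans 0, and no difference was shown in either direction.

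The spread of miR-34a-5p was wide for this array. Its SD exceeded that of 93.8% of the tested miRNAs in the tacrolimus group and that of 93.3% in the control group. The spots of its brightest probe varied by 7.03% to 12.6% (coefficient of variation) within tacrolimus arrays and 6.57% to 9.28% within control arrays. Its 2 probes moved in parallel, the longer one reading higher by 1.09 to 1.17 on the log2 scale on each of the 8 arrays, and the second probe gave a difference of -0.22. The array-to-array spread was thus seen by both probes. As the shorter probe lies wholly within the longer one and both read the same array, this cannot tell whether the spread is technical. Within slide columns 1 to 4, tacrolimus minus control was -0.31, 0.17, -0.55 and -0.01, below 0 in 3 of 4 columns. At least 3 of 4 columns below 0 were found for 24.7% of the tested miRNAs. A lowest array in column 4 in both groups was found for 12.9% of the tested miRNAs.

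**Figure D2:**
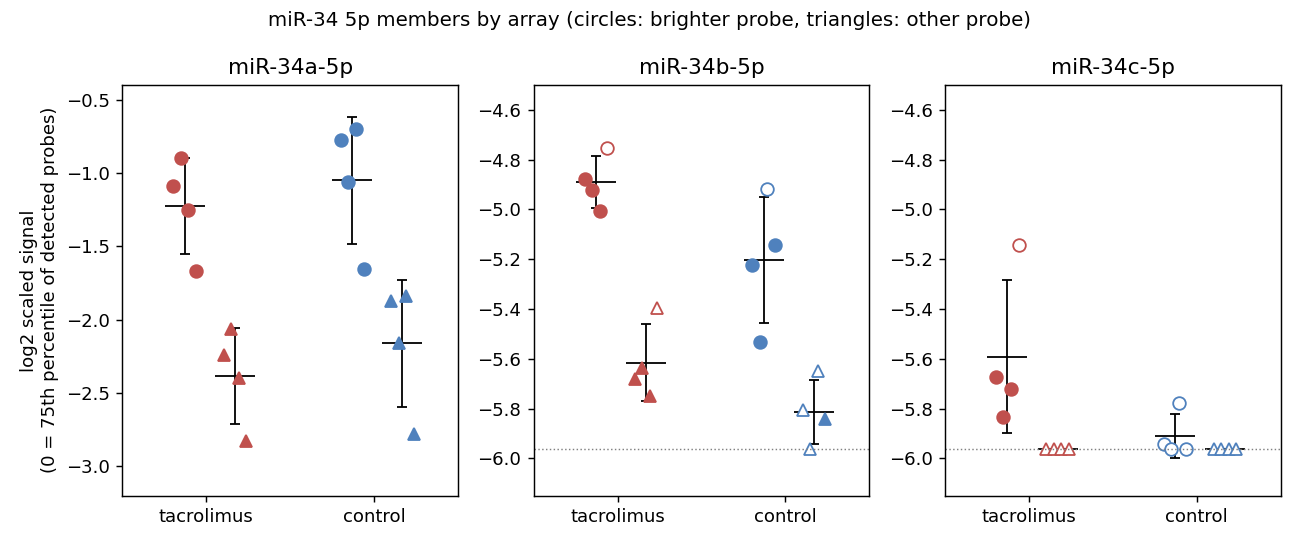
Log2 scaled signal (vertical axis, 0 is the 75th percentile of detected probes) of miR-34a-5p, miR-34b-5p and miR-34c-5p on each array, tacrolimus left of control. Circles are the brighter probe and triangles the other one, filled where detected, bars are mean ± SD over 4 arrays, the dotted line is the floor at -5.96, and the panels have different vertical ranges. miR-34a-5p spans -1.67 to -0.90 after tacrolimus and -1.66 to -0.70 in controls, and the open circles of tacrolimus 4 are the highest in the other panels.

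miR-34b-5p, the 5p arm of the first hairpin of the shared transcript, was dim but measurable. It stood at -4.88, -4.92, -5.01 and -4.75 on tacrolimus 1 to 4, against -5.22, -5.53, -4.92 and -5.14 on control 1 to 4. The tacrolimus arrays lay close together, and of the controls only control 3 reached into their range. The 2 arrays on which it was not detected, tacrolimus 4 (26.3% of spots above background) and control 3 (42.1%), held the highest value of each group. Both are among the 3 arrays of widest negative control spread.

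The mean of miR-34b-5p was -4.89 ± 0.11 after tacrolimus and -5.20 ± 0.25 in controls (SD, n = 4 each), a difference of 0.31 (SE 0.124, 95% interval 0.04 to 0.59), or 1.24-fold. The unadjusted p was 0.0309 and the limma adjusted p 0.273, so that it did not pass. An unadjusted p under 0.05 was reached by 15.5% of the tested miRNAs, and 59.3% of them had a difference above 0. Without tacrolimus 4 the difference was 0.16 (adjusted p = 0.530), and with normexp, a model-based background correction, it was 0.018. Its value thus rested in part on tacrolimus 4 and on how the background was handled.

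The second probe of miR-34b-5p gave a difference of 0.20 and was detected on 3 tacrolimus arrays and 1 control array. Within slide columns 1 to 4 the brighter probe gave 0.35, 0.61, -0.09 and 0.39. At least 3 of 4 columns above 0 were found for 43.8% of the tested miRNAs.

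miR-34c-5p, the neighbour on the same transcript, was detected on 3 of 4 tacrolimus arrays and 0 of 4 control arrays. Its intensity was 43.7, 39.8, 31.3 and 62.7 on tacrolimus 1 to 4, against 41.1, 24.4, 26.1 and 26.0 on control 1 to 4. Before scaling, only control 1, an array with a negative control SD of 10.5, lay within the tacrolimus range. Over spots, 100%, 100%, 90% and 21.1% were above background on tacrolimus 1 to 4, against 21.1%, 21.1%, 0% and 11.1% on control 1 to 4. Tacrolimus 4 thus had the brightest mean signal and the share of spots of a control array.

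The difference in detection did not pass Fisher's exact test (two-sided, exact p = 0.143). Across the 1023 names, 4 (0.391%) were detected on at least 3 tacrolimus arrays and 0 control arrays, and 0 the other way round. The other 3 were miR-146b-5p, miR-29b-1-5p and miR-3072-5p, named after their values were seen. With 3 of 8 arrays detected, miR-34c-5p had no test.

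After scaling, miR-34c-5p stood at -5.67, -5.83, -5.72 and -5.14 on tacrolimus 1 to 4, against -5.94, -5.96, -5.78 and -5.96 on control 1 to 4, with controls 2 and 4 set to the floor. On this scale control 3 was the array within the tacrolimus range, and control 1 lay below it. With the floor in place the means were -5.59 after tacrolimus and -5.91 in controls. It was not well above background in the control group, and the bound that its dim arrays allow is under 1, so no fold is given. Its second probe was at the floor on all 8 arrays. The software's own call is looser and is made per miRNA, not per probe. That call found miR-34c-5p on 4 tacrolimus and 3 control arrays, unlike the rule used here.

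The contrast of miR-34a with the shared transcript was measured within each array, as the log2 signal of miR-34a-5p minus that of miR-34b-5p, which array scaling does not move. As the probes differ, its absolute size has no meaning in molecules, and only its difference between groups is read. The gap was 3.79, 4.03, 3.76 and 3.08 on tacrolimus 1 to 4, against 4.45, 4.47, 4.22 and 3.49 on control 1 to 4. Of the controls, only control 4 lay within the tacrolimus range.

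The gap averaged 3.66 ± 0.40 after tacrolimus and 4.15 ± 0.46 in controls (SD, n = 4 each), a difference of -0.49. This did not pass the exact two-sided permutation test over arrays (p = 0.171, where 4 against 4 arrays allow no p below 0.0286), and it was the 1 pair that could be tested. Within slide columns 1 to 4 the difference was -0.66, -0.44, -0.46 and -0.40, below 0 in 4 of 4 columns. Its SD over columns was 0.11, against 0.32 for miR-34a-5p and 0.29 for miR-34b-5p taken alone. An exact two-sided sign-flip permutation test over the 4 columns gave p = 0.125, the smallest it can give. How often other pairs of miRNAs lie below 0 in every column, or vary so little over columns, was not counted. Arrays of the same number were not taken as pairs, because their deviations from the group means correlated only weakly. Without tacrolimus 4 and control 1 the difference was -0.20, and with normexp -0.19.

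**Figure D3:**
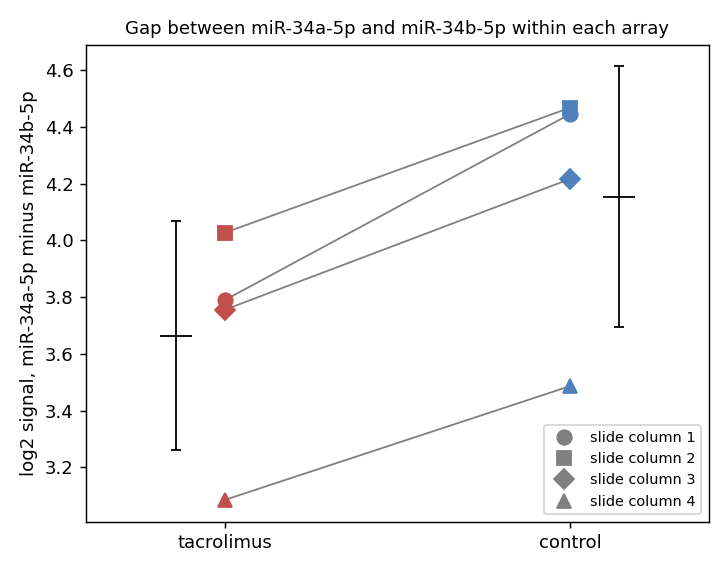
Log2 signal of miR-34a-5p minus that of miR-34b-5p on each array (vertical axis), tacrolimus left and control right, with a line joining the 2 arrays of each slide column and mean ± SD over 4 arrays beside the points. In each of the 4 columns the tacrolimus array lies below its control array, by 0.40 to 0.66, and column 4 is the lowest in both groups.

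Over the 8 arrays miR-34a-5p and miR-34b-5p did not follow each other (Pearson r = -0.18, as a description). Of 193 other tested miRNAs, the closest to miR-34a-5p were miR-425-5p (r = 0.890), miR-93-5p (0.806) and miR-3470a (0.804). Those closest to miR-34b-5p were miR-152-3p (0.878), miR-200a-3p (0.864) and miR-532-5p (0.854). The points share the array, its scaling and its background, and none of these 6 passed the test between groups (limma adjusted p from 0.355 to 0.988).

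Among other miRNAs tied to p53 none was called, which for lists this short is near the 3.09% called over all tested miRNAs. Of 12 listed miRNAs described as raised or processed more under p53, 11 were tested, 7 lay above 0 and 4 below, and 0 passed, with a median difference of 0.08 (range -0.11 to 0.14) beside 0.04 over all 194. The members of smallest p were miR-194-5p (0.14) and miR-192-5p (0.13), which share clusters and mark kidney tubules. Of those described as lowering p53, 5 of 6 were tested and 0 passed (median 0.05), led by miR-125b-5p (0.11), which targets the p53 mRNA, and miR-125a-5p (0.09). Of the 7 described as lowered by p53 or opposing it, all were tested and 0 passed (median 0.08), led by miR-19b-3p (0.11) and miR-18a-5p (0.11) of the growth-promoting miR-17 cluster. At an unadjusted p under 0.05, limma gave 0 in each of these 3 lists, beside 15.5% over all tested miRNAs. For miR-18a-5p each tacrolimus array lay above each control array, as was so, in either direction, for 10.3% of tested miRNAs.

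**Figure D4:**
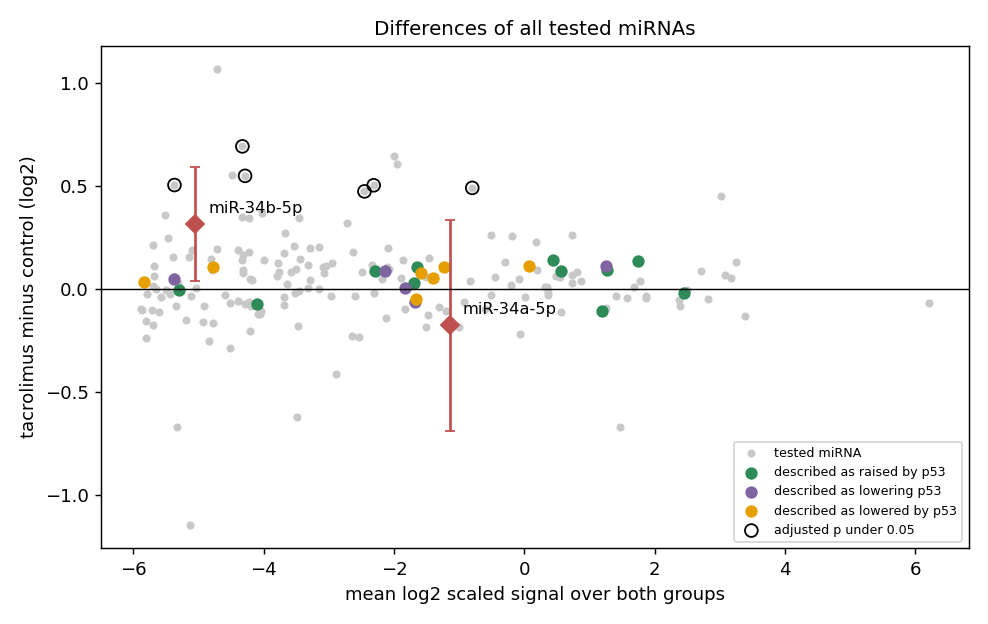
Tacrolimus minus control (vertical axis, log2) against the mean log2 scaled signal over both groups (horizontal axis) for the 194 tested miRNAs in grey, with p53-related lists in colour, the 6 miRNAs past an adjusted p of 0.05 circled and the 2 tested miR-34 members as diamonds with 95% intervals. miR-34b-5p lies at 0.31 and miR-34a-5p at -0.18, and no coloured point is circled.

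None of the 7 leukocyte and erythrocyte markers passed the test between groups (limma, adjusted p from 0.0914 to 0.646). The summed signal of 4 leukocyte miRNAs, all of them tested, was 0.651 to 0.842 after tacrolimus, against 0.400 to 0.635 in controls (in units of the 75th percentile). As log2 differences, miR-142a-3p lay at 0.64, miR-223-3p at 0.61, miR-155-5p at 0.34 and miR-150-5p at 0.25. The first 2 are the brightest of the 4 and weigh most in the sum. How often such sums do not overlap between groups was not counted. The summed signal of 3 erythrocyte miRNAs was 1.88 to 2.50 after tacrolimus, against 2.09 to 5.81 in controls. Of the ciliated-cell markers that are not miR-34 members, miR-449a-5p and miR-449c-5p were at 0 of 8 arrays. The part of these cells in the miR-34 values was not tested, and in whole kidney fewer cells of a type and less RNA per cell cannot be told apart.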

How the data were processed

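The authors deposited, for each array, spot intensity on a linear scale from the scanner software (Feature Extraction, per the file headers), background-subtracted and not scaled between arrays. Their value table held that software's gene totals in 100% of cells (tolerance 1e-06). limma is named without a version in the submitters' processing notes. From the processed signal of 40920 mouse miRNA spots (2645 probes), spots flagged as outliers (7.36% to 11.2%) were left out and spots of a probe averaged. Signals were divided by their array's 75th percentile over 252 probes that all 8 arrays detected, a floor of -5.96 (log2) was set, log2 taken, and the brightest probe kept per miRNA. A miRNA was tested if detected on at least 4 arrays (194 of 1023). Groups were compared with limma 3.58.1 in R 4.3.3 (no covariate, Benjamini-Hochberg over the 194), and the gap with an exact permutation test. Recovery of a known difference through the flagging, scaling, floor and detection steps was not tested. Sequences, host genes and coordinates are from RefSeq tables on GRCm38.p6, while the array design names an older mouse assembly. Named are the members, their seed relatives, the markers, for each list the 2 tested miRNAs of smallest p, and for each tested member the 3 most alike. The members and lists were chosen with earlier results of these data known. The number of arrays limits the precision. Alternatives tried were other scalings, background correction, floors, filters, probe rules, a replicate block and leaving out arrays.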

Additional observations from a re-analysis of the deposited data

Results flagged for a closer look

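Among 58 groups of 4 arrays examined for a single array far from the rest, 3 stood out where chance gives about 2.9. None of these 3 was of a miR-34 member. For miR-34c-5p nothing is read from this, as 2 of its control arrays were set to the floor. miR-196a-5p, a tubule marker, was lower on tacrolimus 1 than the mean of the other 3 tacrolimus arrays by a log2 difference of -0.277. miR-451a, an erythrocyte miRNA, was lower on tacrolimus 4 than its group's other arrays by a log2 difference of -0.391. miR-125a-5p, described as lowering p53, was higher on tacrolimus 2 by 0.197.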

How the results depend on the processing

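The miR-34a-5p difference stayed below 0 in 24 of 24 alternatives (-0.38 to -0.02), that of miR-34b-5p above 0 in 23 of 23 (0.018 to 0.47), and that of the gap below 0 in 21 of 21 (-0.71 to -0.19, exact permutation p from 0.0571 to 0.6). None of the 3 passed its test in any of them. Not all of these alternatives could move the values. No filter, the trended robust fit and the replicate block left both member differences as they were. Median scaling, no scaling and the replicate block left the gap at -0.49. The counts of direction come from the same arrays and are no independent support. Leaving out 1 array gave -0.38 to -0.07 for miR-34a-5p, 0.16 to 0.40 for miR-34b-5p and -0.71 to -0.30 for the gap. Without tacrolimus 4 the difference of the gap was -0.30, and without control 2 miR-34b-5p lay at 0.21. Without control 4 the miR-34a-5p difference was -0.38, and without control 1 or control 3 it was -0.09 or -0.07. Without tacrolimus 4 and control 1, an alternative added after seeing the data, it was -0.08, and that of miR-34b-5p was 0.12. A floor 2 times as high put miR-34b-5p at 0.07 and the gap at -0.25. Without scaling the median of all tested miRNAs was 0.19, miR-34a-5p lay at -0.02 and miR-34b-5p at 0.47. The count of 6 miRNAs past the threshold, to which no member belongs, became 0 with no scaling, scaling by the 75th percentile over all probes, the higher floor, averaged probes, flagged spots kept, the software's gene totals, the authors' own table, no filter, a trended robust fit, the replicate block, and without tacrolimus 4 and control 1. At an unadjusted p under 0.05 these limma fits gave 1 to 37. It became 1 with normexp, and 0 to 7 when 1 array was left out. Median scaling gave 8 (6 higher), quantile normalization 7 (6 higher) and a filter for detection on all 8 arrays 5. Under that filter miR-34b-5p had no value. The causes were not tested. Arrays of the same number correlated weakly in their deviations (r from 0.0994 to 0.135) and not each best with its own number, so the numbers were not taken as pairs. With the replicate block the adjusted p was 0.575 for miR-34a-5p and 0.252 for miR-34b-5p. Noise limits the dim members: 2.9% to 9.1% of negative control spots were above background per array.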
